A study of Mus musculus with 12 samples.

Results

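The collagen, laminin and matrix genes are taken by symbol: every gene named *Col* with chain numbers, the laminin chains (*Lama*, *Lamb*, *Lamc*), the fibulins and fibrillins (*Fbln*, *Fbn*), the lysyl oxidases (*Lox*, *Loxl*), and *Fn1*, *Eln*, *Sparc*, *Postn*, *Tnc*, *Bgn*, *Dcn* and *Lum*. On the bead arrays 62 genes with these symbols had a probe. Of these, 29 reached a detection value of 100 on one or more arrays and were tested among 6096 genes, each by its brightest probe. The other 33 stayed under 100 on all 12 arrays. The symbols *Fn1*, *Fbn1* and *Col6a3* were not analysed here.

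The extracellular matrix is the scaffold that fibroblasts secrete around themselves. Collagen chains wind into triple helices. Fibrillar collagens are then crosslinked by lysyl oxidases into fibrils, collagen IV and laminins form basement membranes, collagen VI forms beaded microfilaments, and elastin is laid down on a microfibril scaffold with the help of fibulins. Small leucine-rich proteoglycans such as decorin and lumican bind collagen fibrils and set their spacing. Sirt6 is a histone deacetylase, RelA is a subunit of the transcription factor NF-κB, and TNF-α is an inflammatory cytokine that activates NF-κB. TNF-α is known to lower type I collagen and elastin mRNA in cultured human skin fibroblasts.

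RNA was measured in mouse embryonic fibroblasts (MEFs) without Sirt6 and RelA (*Sirt6-/-RelA-/-*), without Sirt6 (*Sirt6-/-*) and with both genes intact (WT). MEFs came from embryos of 13.5 days, were passaged before use, and each genotype was exposed to TNF-α at 20 ng/mL for 0, 1.5, 6 and 24 h. There is 1 array for each of the 12 conditions. The methods speak of littermate embryos, and how many embryos or cultures stand behind a genotype is not given in the sources used here. A genotype is therefore repeated only over the 4 times, an adjusted p measures how steady a difference was over those times, and genotype and culture cannot be told apart. Values are linear intensities as the authors deposited them. Intensities of different probes are not compared with each other, because each probe has its own brightness.

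The deleted genes followed the labels. *Sirt6* gave intensities of -2.85 to 11.96 on the *Sirt6-/-RelA-/-* arrays, -8.50 to 5.88 on the *Sirt6-/-* arrays and 37.6 to 44.2 on the WT arrays, and *Rela* gave 172 to 187, 1025 to 1446 and 674 to 1303 in the same order of genotypes. The WT 0 h array stood somewhat apart: its mean correlation with the other arrays of its genotype was 0.967, against a median of 0.985 over the 12 arrays. The cultures also differed in cell type markers. The summed intensity of 9 fibroblast markers, 8 of which reached 100, was 20465 to 22787 in *Sirt6-/-RelA-/-* MEFs, 14490.2 to 17959.5 in *Sirt6-/-* MEFs and 16955 to 21467 in WT MEFs. The brightest of these markers reached 13419 and makes up much of the sum. Among them *Pdgfra*, a receptor of embryonic fibroblasts, lay at 51.5 to 67.5 in *Sirt6-/-RelA-/-* MEFs, 17.1 to 35.2 in *Sirt6-/-* MEFs and 135 to 162 in WT MEFs. *Pdgfra* had the largest fall of the 8 in *Sirt6-/-* over WT MEFs. There 4 were lower (adjusted p under 0.05, against 17.0% of all genes) and 4 did not pass. In *Sirt6-/-RelA-/-* over WT MEFs 1 was higher and 1 lower, against 15.3% and 5.31% of all genes, and 6 did not pass. The summed intensity of 11 skeletal muscle markers, 7 of which reached 100, was 6866 to 8630 in *Sirt6-/-RelA-/-* MEFs, 9569 to 11328 in *Sirt6-/-* MEFs and 2808 to 4157 in WT MEFs, with *Myod1* and *Ckm* under 16 throughout. Most of that sum is *Acta1*, at 6053 to 7828, 6215 to 7569 and 2607 to 3879 in the same order, whereas *Myl1*, *Actc1* and *Tnnc2* lay at 89.9 to 1256 in *Sirt6-/-* MEFs and at 19.6 or less in the other cells. The other tested muscle markers were not alike. In *Sirt6-/-RelA-/-* and *Sirt6-/-* over WT MEFs, log2 differences were 2.67 and 3.72 for *Des*, 1.69 and 1.69 for *Chrna1* and 0.32 and 3.57 for *Tnnc1*. The sum of 5 smooth muscle markers, 4 of which reached 100, was 20977 to 28193 in *Sirt6-/-RelA-/-* MEFs, 19095 to 25959.9 in *Sirt6-/-* MEFs and 14586 to 19995 in WT MEFs. Of 6 macrophage and blood markers 3 reached 100, and their sum was 295 to 461 in *Sirt6-/-RelA-/-* MEFs, 192 to 494 in *Sirt6-/-* MEFs and 901 to 1953 in WT MEFs. The sums of 7 endothelial markers (1 reached 100) and 5 epithelial markers (2 reached 100) were highest in *Sirt6-/-* MEFs, at 133 to 173 and 339.8 to 384, and stayed at or under 66.2 and 199.7 in the other cells. The Y-linked *Eif2s3y* lay at 768 to 910.1 in *Sirt6-/-RelA-/-* MEFs, -11.9 to 2.56 in *Sirt6-/-* MEFs and -4.18 to -0.970 in WT MEFs. None of 8 measured chondrocyte and bone markers reached 100, and *Bglap*, *Hapln1*, *Ibsp*, *Matn1* and *Sp7* were under 16 on every array. The part of these cell type differences in the results below was not tested. In RNA from whole cultures, fewer cells of a type and less RNA per cell cannot be told apart.

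In *Sirt6-/-* compared with WT MEFs, the matrix genes moved in both directions. Elastin rose 5.36-fold and the basement membrane collagen chain *Col4a5* 2.68-fold, whereas lumican, *Col5a3*, both collagen VI chains, *Col2a1* and *Col1a2* fell. For collagen VI, *Col2a1* and *Col1a2* the fall was 2.42-fold to 4.31-fold, while lumican and *Col5a3* were near the floor of measurement in *Sirt6-/-* MEFs. Of the 29 genes, limma called 12 higher and 8 lower (adjusted p under 0.05), and 9 did not pass. Over all 6096 genes tested, 25.1% were called higher and 17.0% lower. The median difference of the 29 genes was 0.01 on the log2 scale, against 0.06 over all genes. A called change of at least 2-fold was seen for 8 of the 29, against 6.66% of all genes. *Col5a3* and *Lum* passed the filter only through the WT arrays. Among the 27 genes that reached 100 in every genotype, 12 were higher, 6 lower, and 6 changed at least 2-fold. The split of 12 higher to 8 lower was 9 to 8 after centring each array on its median and 7 to 9 after quantile normalization, and *Bgn*, *Col4a1*, *Fbln2*, *Lox* and *Sparc* no longer passed in the last of these.

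In *Sirt6-/-RelA-/-* compared with *Sirt6-/-* MEFs, 7 of the 29 genes were higher and 5 lower, against 16.1% and 15.0% of all genes, and 6 changed at least 2-fold, against 4.40% of all genes. The higher genes included both collagen VI chains and *Col2a1*, and the lower ones *Col5a2*, elastin, decorin, *Col4a5* and *Loxl2*. Lumican was also called higher, but it stayed under 100 in both genotypes and did not pass with a floor of 32. The median was 0.02 on the log2 scale, the same as over all genes. In *Sirt6-/-RelA-/-* compared with WT MEFs, 4 were higher and 6 lower, against 15.3% and 5.31% of all genes, with a median of 0.13 and 0.07 over all genes. That split was 3 higher to 6 lower after centring and 2 to 8 after quantile normalization. Among the 27 genes, which leave out *Col5a3* and *Lum*, 4 were higher and 4 lower. The 3 comparisons share arrays in pairs, so they are not independent of each other. The plot of the fitted differences by class shows all 29 genes.

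**Figure D1:**
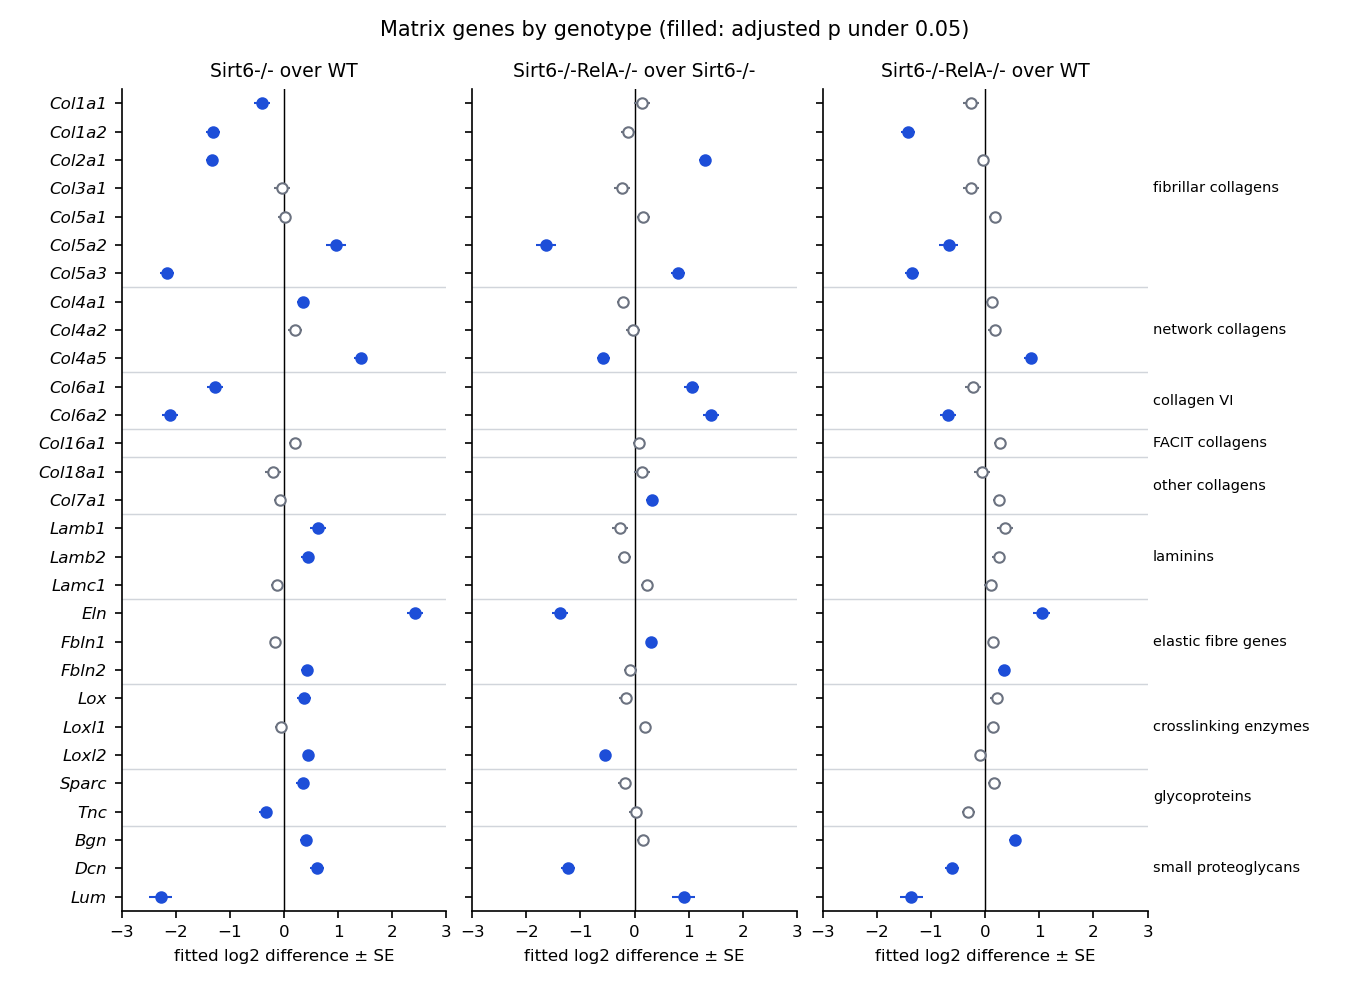
Fitted log2 differences (x axis, ± SE from limma over 12 arrays) of the 29 tested matrix genes (rows, grouped by protein class) for *Sirt6-/-* over WT, *Sirt6-/-RelA-/-* over *Sirt6-/-* and *Sirt6-/-RelA-/-* over WT, with filled points where the adjusted p was under 0.05. *Eln* lies farthest to the right in the first panel at 2.42 and *Lum* farthest to the left at -2.27, while *Col5a2* lies farthest to the left in the second panel at -1.64.

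The fibrillar collagens form the fibrils of skin, bone, tendon and cartilage. Of 7 tested, 1 was higher and 4 were lower in *Sirt6-/-* than in WT MEFs. *Col1a2*, the α2 chain of type I collagen, was lower in both knockouts. At 0, 1.5, 6 and 24 h its intensity was 2371, 2450.2, 1918 and 1571 in *Sirt6-/-RelA-/-* MEFs, 2458, 2595, 2066 and 1819.5 in *Sirt6-/-* MEFs and 4475, 6556, 5900.2 and 5343 in WT MEFs. Every knockout array lay below every WT array. The difference was -1.32 (SE 0.13, adjusted p = 4.18e-06, lower at 4 of 4 times) for *Sirt6-/-* over WT and -1.43 (SE 0.13, adjusted p = 8.78e-06, lower at 4 of 4 times) for *Sirt6-/-RelA-/-* over WT. Between both knockouts it was -0.11 (SE 0.13, adjusted p = 0.537), which did not pass.

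*Col1a1*, the α1 chain that pairs with *Col1a2* in type I collagen, did not share this pattern. Its intensity was 4813, 4299, 4169.7 and 3868 in *Sirt6-/-RelA-/-* MEFs, 4817, 4485, 4184 and 2510.1 in *Sirt6-/-* MEFs and 8355, 4733, 4211 and 4179 in WT MEFs. The WT 0 h array was the highest and the *Sirt6-/-* 24 h array the lowest, and the groups overlapped. The difference of -0.40 (SE 0.15, adjusted p = 0.0478) between *Sirt6-/-* and WT MEFs did not pass without the WT 0 h array (-0.25, adjusted p = 0.154). *Col3a1*, which encodes type III collagen and forms fibrils with type I, had intensities of 2941, 2562, 2374 and 1514 in *Sirt6-/-RelA-/-* MEFs, 2677, 2994, 2538 and 2515 in *Sirt6-/-* MEFs and 2313, 3502, 2817 and 2508 in WT MEFs. The groups overlapped, and the difference of *Sirt6-/-* over WT was -0.04 (SE 0.15, adjusted p = 0.848).

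The promoters of *Col1a2* and *Col3a1* are shown because one of these fibril genes fell and the other did not pass the test. Each run gives the 250 bases before the RefSeq start in GRCm38.p6, 5′ to 3′ on the gene's strand (chr6:4505368-4505617, plus strand for *Col1a2*; chr1:45311288-45311537, plus strand for *Col3a1*). Capitals mark matches, on either strand, to the CCAAT box, which has the letters of its name, to the TATA box, searched for as TATAAA, to the GC box known from Sp1 binding, searched for as GGGCGG, to the AP-1 site known from Jun and Fos binding, searched for as TGANTCA, or to an NF-κB consensus.
Col1a2: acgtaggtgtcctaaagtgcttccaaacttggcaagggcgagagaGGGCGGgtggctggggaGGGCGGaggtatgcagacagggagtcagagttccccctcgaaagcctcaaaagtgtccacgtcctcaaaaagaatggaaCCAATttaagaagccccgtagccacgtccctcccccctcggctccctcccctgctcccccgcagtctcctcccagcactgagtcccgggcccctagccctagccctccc
Col3a1: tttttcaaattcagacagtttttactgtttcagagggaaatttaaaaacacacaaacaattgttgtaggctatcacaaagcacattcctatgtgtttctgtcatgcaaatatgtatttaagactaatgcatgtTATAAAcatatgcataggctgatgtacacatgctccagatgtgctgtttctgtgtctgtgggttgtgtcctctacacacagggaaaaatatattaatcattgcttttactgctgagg
The *Col1a2* window holds 1 CCAAT box and 2 GC boxes, and the *Col3a1* window 1 TATA box. Among 32851 RefSeq windows of this length, 33.8% hold a CCAAT box, 32.7% a GC box, 12.4% a TATA box, 6.75% an AP-1 site and 7.25% an NF-κB consensus. Of the 29 tested genes 19 had a window, and of those 9 held a CCAAT box, 13 a GC box, 2 a TATA box, 1 an AP-1 site and 2 an NF-κB consensus. No 2 matches overlapped in the windows printed here, and a match is a run of letters, not a measured binding site. *Col1a1*, *Col2a1*, *Col5a2*, *Dcn*, *Eln*, *Lamc1*, *Lox*, *Loxl1*, *Loxl2* and *Lum* had no window in the promoter set used here and were not searched.

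*Col2a1*, the chain of type II collagen and a hallmark of cartilage, was above 100 on all arrays, whereas none of the chondrocyte and bone markers reached that value. Its intensity was 703, 629.9, 728 and 542 in *Sirt6-/-RelA-/-* MEFs, 297, 289.8, 280.1 and 197 in *Sirt6-/-* MEFs and 802, 751, 641 and 498 in WT MEFs. The *Sirt6-/-* arrays lay below all others, and the 2 remaining genotypes overlapped. The difference was -1.33 (SE 0.10, adjusted p = 5.15e-07, lower at 4 of 4 times) for *Sirt6-/-* over WT and 1.30 (SE 0.10, adjusted p = 1.43e-06, higher at 4 of 4 times) for *Sirt6-/-RelA-/-* over *Sirt6-/-*, and the dimmer second probe gave -1.25 and 1.24.

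The 3 chains of type V collagen, which is built into type I fibrils and limits their width, differed from each other. *Col5a1* had intensities of 6905 to 10872 in *Sirt6-/-RelA-/-* MEFs, 7620.1 to 9174 in *Sirt6-/-* MEFs and 7737 to 9728 in WT MEFs and passed in no comparison of genotypes. *Col5a2* measured 236, 250.1, 175 and 116 in *Sirt6-/-RelA-/-* MEFs, 558, 617, 534 and 613 in *Sirt6-/-* MEFs and 236, 363, 342 and 266 in WT MEFs. The *Sirt6-/-* arrays were the highest without overlap, and the other 2 genotypes overlapped. It differed by 0.96 (SE 0.18, adjusted p = 0.000945, higher at 4 of 4 times) for *Sirt6-/-* over WT and by -1.64 (SE 0.18, adjusted p = 2.3e-05, lower at 4 of 4 times) for *Sirt6-/-RelA-/-* over *Sirt6-/-*. *Sirt6-/-RelA-/-* over WT gave -0.68 (SE 0.18, adjusted p = 0.02), a call lost in 5 alternatives, among them leaving out the arrays of 1.5, 6 or 24 h. *Col5a3* was dim, at 34.4, 27.6, 44.01 and 37.4 in *Sirt6-/-RelA-/-* MEFs, 6.90, 12.7, 26.3 and 24.6 in *Sirt6-/-* MEFs and 100.1, 73.2, 86.7 and 103 in WT MEFs. It passed the filter only through the WT arrays, so its difference of -2.16 for *Sirt6-/-* over WT is given as a description. That difference rests on a floor of 16, under which 2 of the 4 *Sirt6-/-* arrays fell, and was -1.49 with a floor of 32. The difference of 0.81 (SE 0.13, adjusted p = 0.000476) between *Sirt6-/-RelA-/-* and *Sirt6-/-* MEFs did not pass with that floor (0.20, adjusted p = 0.215).

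Collagen VI forms a microfilament network around cells, in muscle and skin among other tissues, and its core chains are encoded by *Col6a1*, *Col6a2* and *Col6a3*. Both measured chains were lowest in *Sirt6-/-* MEFs. *Col6a2* had intensities of 416, 356, 415 and 251 in *Sirt6-/-RelA-/-* MEFs, 170.5, 162, 147 and 74.1 in *Sirt6-/-* MEFs and 791, 556, 485 and 487 in WT MEFs. The 3 genotypes did not overlap. The difference was -2.11 (SE 0.15, adjusted p = 3.31e-07, lower at 4 of 4 times) for *Sirt6-/-* over WT and 1.42 (SE 0.15, adjusted p = 1.66e-05, higher at 4 of 4 times) for *Sirt6-/-RelA-/-* over *Sirt6-/-*. *Sirt6-/-RelA-/-* MEFs stayed below WT MEFs, at -0.69 (SE 0.15, adjusted p = 0.00715), a call lost without a filter on low values (adjusted p = 0.105).

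*Col6a1* had intensities of 3212, 3068, 3691 and 3008 in *Sirt6-/-RelA-/-* MEFs, 1454, 1477, 1677 and 1632 in *Sirt6-/-* MEFs and 5159, 3989, 3299.7 and 2989 in WT MEFs. Again every *Sirt6-/-* array lay below all others, and the 2 remaining genotypes overlapped. The difference was -1.28 (SE 0.15, adjusted p = 1.6e-05, lower at 4 of 4 times) for *Sirt6-/-* over WT and 1.05 (SE 0.15, adjusted p = 0.00013, higher at 4 of 4 times) for *Sirt6-/-RelA-/-* over *Sirt6-/-*. A second probe gave -1.05 and 0.94 for the same comparisons, but 3074 in place of 5159 on the WT 0 h array.

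*Col6a1* and *Col6a2* lie next to each other on chromosome 10 with no other protein-coding gene between them in the RefSeq annotation. Their promoter windows are shown because these neighbours moved together (chr10:76726045-76726294, minus strand for *Col6a1*; chr10:76623631-76623880, minus strand for *Col6a2*; marks as above).
Col6a1: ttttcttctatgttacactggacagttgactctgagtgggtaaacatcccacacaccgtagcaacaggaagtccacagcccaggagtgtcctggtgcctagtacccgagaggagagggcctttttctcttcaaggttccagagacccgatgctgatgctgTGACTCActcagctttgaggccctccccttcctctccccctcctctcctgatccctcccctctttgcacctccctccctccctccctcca
Col6a2: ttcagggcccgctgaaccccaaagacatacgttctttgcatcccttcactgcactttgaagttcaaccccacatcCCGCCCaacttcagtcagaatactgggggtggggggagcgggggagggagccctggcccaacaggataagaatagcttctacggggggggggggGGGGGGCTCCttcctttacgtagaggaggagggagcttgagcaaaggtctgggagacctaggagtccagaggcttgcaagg
The *Col6a1* window holds 1 AP-1 site, and the *Col6a2* window 1 GC box and 1 NF-κB consensus. There were 3 other neighbouring pairs among the tested genes. In *Sirt6-/-* over WT MEFs *Dcn* and *Lum*, adjacent on chromosome 10, differed by 0.61 and -2.27, *Col3a1* and *Col5a2* on chromosome 1 by -0.04 and 0.96, and *Col4a1* and *Col4a2* on chromosome 8 by 0.35, which passed, and 0.21, which did not.

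**Figure D2:**
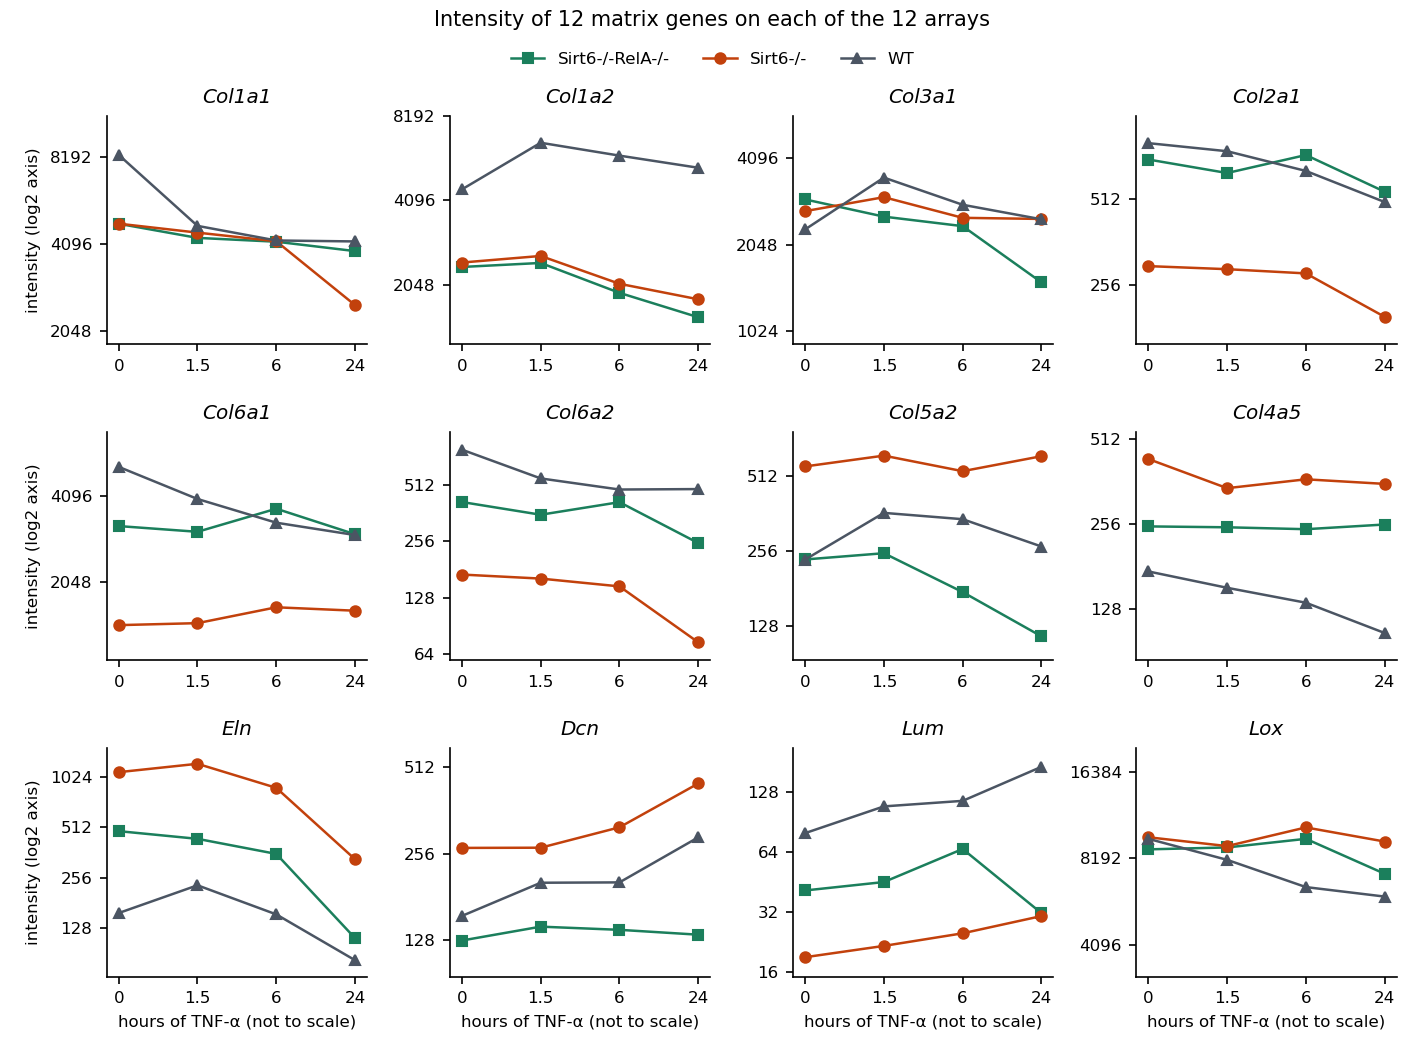
Intensity (log2 y axis, each panel with its own range) of 12 matrix genes on each of the 12 arrays, against hours of TNF-α (x axis, not to scale), with 1 point for each array and lines joining the arrays of *Sirt6-/-RelA-/-*, *Sirt6-/-* and WT MEFs. The *Sirt6-/-* line is lowest for *Col2a1*, *Col6a1* and *Col6a2* and highest for *Col5a2*, *Col4a5*, *Eln* and *Dcn*, both knockout lines lie below WT for *Col1a2*, and all 3 *Eln* lines drop at 24 h.

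Collagen IV is the network collagen of basement membranes. Of its major chains, *Col4a2* differed by 0.21 (SE 0.12, adjusted p = 0.196) in *Sirt6-/-* over WT MEFs and passed in no comparison of genotypes. *Col4a1* lay at 3714 to 4058 in *Sirt6-/-RelA-/-* MEFs, 4342 to 4768 in *Sirt6-/-* MEFs and 3028 to 4558 in WT MEFs, and its rise of 0.35 (SE 0.11, adjusted p = 0.0214) in *Sirt6-/-* over WT MEFs did not pass after quantile normalization (0.18, adjusted p = 0.195). *Col4a5*, the X-linked minor chain that is mutated in Alport syndrome, had intensities of 251, 249, 246 and 255 in *Sirt6-/-RelA-/-* MEFs, 434, 343, 368 and 355 in *Sirt6-/-* MEFs and 174, 153, 135 and 106 in WT MEFs. The 3 genotypes did not overlap. It differed by 1.42 (SE 0.12, adjusted p = 1.15e-06, higher at 4 of 4 times) for *Sirt6-/-* over WT, by -0.58 (SE 0.12, adjusted p = 0.0029, lower at 4 of 4 times) for *Sirt6-/-RelA-/-* over *Sirt6-/-* and by 0.84 (SE 0.12, adjusted p = 0.000428) for *Sirt6-/-RelA-/-* over WT. The Y-linked *Eif2s3y* given above separated the *Sirt6-/-RelA-/-* arrays from all others, and *Xist* lay at -0.762 to 11.2 in *Sirt6-/-RelA-/-* MEFs, 71.3 to 97.2 in *Sirt6-/-* MEFs and 82.6 to 121 in WT MEFs. The part of this in the *Col4a5* values of *Sirt6-/-RelA-/-* MEFs was not tested.

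Of the other collagens, *Col16a1*, which associates with fibrils, and *Col18a1*, the source of endostatin, passed in no comparison of genotypes, and *Col7a1*, the anchoring fibril collagen of skin, was higher in *Sirt6-/-RelA-/-* than in *Sirt6-/-* MEFs by 0.32 (SE 0.11, adjusted p = 0.0468), a call lost in 6 alternatives, among them quantile normalization. Among the 3 tested laminin chains, which assemble as αβγ trimers in basement membranes, *Lamb1* lay at 337 to 443 in *Sirt6-/-RelA-/-* MEFs, 367 to 697 in *Sirt6-/-* MEFs and 286 to 330.1 in WT MEFs. It was higher in *Sirt6-/-* than in WT MEFs by 0.63 (SE 0.15, adjusted p = 0.00357, higher at 4 of 4 times). *Lamb2* was higher by 0.44 (SE 0.12, adjusted p = 0.00988, higher at 3 of 4 times), and *Lamc1*, the γ chain shared by most laminins, differed by -0.13 (SE 0.12, adjusted p = 0.407). Both calls were lost without a filter on low values, and that of *Lamb2* also without the 6 h arrays. No laminin chain passed between *Sirt6-/-RelA-/-* and *Sirt6-/-* MEFs, where the 3 differences ran from -0.27 to 0.23.

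Elastin, the stretchable core of elastic fibres, showed the largest rise of the 29 genes in *Sirt6-/-* MEFs. *Eln* measured 484, 436, 355 and 112 in *Sirt6-/-RelA-/-* MEFs, 1087, 1219, 877 and 329 in *Sirt6-/-* MEFs and 158, 231, 155 and 82.6 in WT MEFs at 0, 1.5, 6 and 24 h. At each time the *Sirt6-/-* array was the highest and the WT array the lowest. The difference was 2.42 (SE 0.15, adjusted p = 7.74e-08, higher at 4 of 4 times) for *Sirt6-/-* over WT, -1.38 (SE 0.15, adjusted p = 1.85e-05, lower at 4 of 4 times) for *Sirt6-/-RelA-/-* over *Sirt6-/-* and 1.04 (SE 0.15, adjusted p = 0.000434, higher at 4 of 4 times) for *Sirt6-/-RelA-/-* over WT. The smooth muscle myosin *Myh11* moved with *Eln*, at 107, 104, 108 and 71.2 in *Sirt6-/-RelA-/-* MEFs, 391, 339.7, 373 and 164 in *Sirt6-/-* MEFs and 71.3, 67.8, 61.2 and 30.8 in WT MEFs. Its part, and that of smooth muscle cells, in the *Eln* values was not tested. The other tested smooth muscle markers *Acta2*, *Tagln* and *Smtn* differed by 0.42, 0.52 and -0.15 in *Sirt6-/-* over WT MEFs and by 0.16, 0.06 and 0.33 in *Sirt6-/-RelA-/-* over *Sirt6-/-* MEFs.

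The fibulins, which bridge elastin to other matrix proteins, changed less. *Fbln2* lay at 6474 to 7118 in *Sirt6-/-RelA-/-* MEFs, 6721 to 7806 in *Sirt6-/-* MEFs and 4587 to 6678 in WT MEFs, a difference of 0.42 (SE 0.12, adjusted p = 0.0102) for *Sirt6-/-* over WT. Its 3 probes were higher in *Sirt6-/-* than in WT MEFs but did not give the same size. The dimmest gave 1.91 in *Sirt6-/-* over WT MEFs, and between *Sirt6-/-RelA-/-* and *Sirt6-/-* MEFs the 3 probes gave -0.08, 0.25 and -1.45, so no direction is given for that comparison. On the probe used *Sirt6-/-RelA-/-* MEFs were higher than WT MEFs by 0.35 (SE 0.12, adjusted p = 0.0491), a call lost in 8 alternatives, both other scalings among them. *Fbln1* was higher in *Sirt6-/-RelA-/-* than in *Sirt6-/-* MEFs by 0.30 (SE 0.10, adjusted p = 0.0277), a call lost without the arrays of 1.5, 6 or 24 h.

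Of the enzymes that crosslink collagen and elastin, *Loxl2* had intensities of 233, 285, 342 and 258 in *Sirt6-/-RelA-/-* MEFs, 392, 409, 446 and 369.8 in *Sirt6-/-* MEFs and 307, 278, 312 and 281 in WT MEFs. The *Sirt6-/-* arrays lay above all others. It differed by 0.46 (SE 0.10, adjusted p = 0.00332) for *Sirt6-/-* over WT and by -0.54 (SE 0.10, adjusted p = 0.00155) for *Sirt6-/-RelA-/-* over *Sirt6-/-*. *Lox* lay at 7243 to 9579 in *Sirt6-/-RelA-/-* MEFs, 9038 to 10494 in *Sirt6-/-* MEFs and 6034 to 9579.6 in WT MEFs, with the WT 0 h array inside the knockout range. Its difference of 0.38 (SE 0.13, adjusted p = 0.0283) in *Sirt6-/-* over WT MEFs did not pass after centring the arrays on their median (0.31, adjusted p = 0.0604). *Loxl1*, which deposits elastin in fibres, passed in no comparison of genotypes.

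*Sparc*, a collagen-binding glycoprotein, lay at 6122 to 9070.4 in *Sirt6-/-RelA-/-* MEFs, 8351 to 9798 in *Sirt6-/-* MEFs and 6021 to 8274 in WT MEFs. Its rise of 0.35 (SE 0.12, adjusted p = 0.0288) in *Sirt6-/-* over WT MEFs was lost after centring (0.29, adjusted p = 0.0601). *Tnc*, the matricellular protein tenascin C, lay at 4512 to 6172, 4901 to 6272 and 6180.5 to 7162 in the same order of genotypes, and differed by -0.33 (SE 0.12, adjusted p = 0.038) in *Sirt6-/-* over WT MEFs. All 6 of its probes were lower on average. The call was lost without the WT 0 h array (adjusted p = 0.0929).

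The small leucine-rich proteoglycans diverged. Decorin (*Dcn*), which binds type I collagen and TGF-β, had intensities of 128, 143, 139 and 134 in *Sirt6-/-RelA-/-* MEFs, 268, 268, 316 and 449 in *Sirt6-/-* MEFs and 155, 203, 203 and 291 in WT MEFs. The *Sirt6-/-RelA-/-* arrays were the lowest without overlap, and the *Sirt6-/-* arrays overlapped the WT arrays only at the 24 h value of the WT. *Dcn* differed by 0.61 (SE 0.14, adjusted p = 0.00283, higher at 4 of 4 times) for *Sirt6-/-* over WT, by -1.23 (SE 0.14, adjusted p = 2.27e-05, lower at 4 of 4 times) for *Sirt6-/-RelA-/-* over *Sirt6-/-* and by -0.62 (SE 0.14, adjusted p = 0.00708) for *Sirt6-/-RelA-/-* over WT. The last of these calls was lost without a filter on low values (adjusted p = 0.0883).

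Lumican (*Lum*), which also spaces collagen fibrils, went the other way in *Sirt6-/-* MEFs. Its intensity was 41.04, 45.2, 66.3 and 31.6 in *Sirt6-/-RelA-/-* MEFs, 18.97, 21.6, 25.01 and 30.5 in *Sirt6-/-* MEFs and 79.6, 108, 116 and 171 in WT MEFs. All 4 *Sirt6-/-* arrays lay below all others, none of the 8 knockout arrays reached 100, and the WT arrays were the highest. *Lum* passed the filter only through the WT arrays, where it was high. Its difference of -2.27 (lower at 4 of 4 times) for *Sirt6-/-* over WT is therefore given as a description. Between *Sirt6-/-RelA-/-* and *Sirt6-/-* MEFs the difference was 0.91 (SE 0.21, adjusted p = 0.00539), and 0.48 with a floor of 32, where it did not pass (adjusted p = 0.0986). Biglycan (*Bgn*) lay at 15467 to 18353 in *Sirt6-/-RelA-/-* MEFs, 14338 to 16229 in *Sirt6-/-* MEFs and 9881 to 13479 in WT MEFs and was higher by 0.40 (SE 0.11, adjusted p = 0.0114) in *Sirt6-/-* over WT MEFs. *Sirt6-/-RelA-/-* MEFs were higher than WT MEFs by 0.55 (SE 0.11, adjusted p = 0.00447). Both calls were lost after quantile normalization and without the 6 h arrays, the first with a value of 0.17 (adjusted p = 0.159) after quantile normalization.

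Near the filter, the highest value of *Col5a3* was 103, just inside, and those of *Lama2* and *Postn*, 99.8 and 88.7, were just outside. *Lama2*, the laminin chain of muscle basement membrane, lay at 86.4 to 99.8 in *Sirt6-/-RelA-/-* MEFs, 77.8 to 93.6 in *Sirt6-/-* MEFs and 33.7 to 58.2 in WT MEFs. *Postn* lay at 44.8 to 69.8, 31.6 to 47.2 and 55.99 to 88.7 in the same order. Neither was tested.

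Over the course of TNF-α no matrix gene passed the test before 24 h, and those that passed at 24 h were lower. In the response averaged over the 3 genotypes, none of the 29 passed at 1.5 h or at 6 h, when 0.262% and 0.886% of all genes did. At an unadjusted p under 0.05, limma gave 0 at 1.5 h and 2 at 6 h (*Col1a1*, -0.47, and *Lum*, 0.54). At 24 h 4 were lower and 0 higher, against 1.28% and 0.869% of all genes. At an unadjusted p under 0.05 there were 8 lower and 1 higher, the higher one being *Dcn* at 0.57. The differences of 21 of the 29 were below 0 (72.4%, against 44.9% of all genes), with a median of -0.21 and 0.02 over all genes. Part of this tilt rests on the WT 0 h array. Without it *Col4a2*, *Col7a1*, *Fbln2* and *Loxl2* lay above 0, at 0.01, 0.15, 0.03 and 0.07, and no gene moved from above to below 0.

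*Eln* fell most at 24 h. Its intensity was 112 at 24 h against 484 at 0 h in *Sirt6-/-RelA-/-* MEFs, 329 against 1087 in *Sirt6-/-* MEFs and 82.6 against 158 in WT MEFs. The fitted difference was -1.59 (SE 0.17, adjusted p = 0.00126, lower in 3 of 3 genotypes). It passed in every alternative except without a filter on low values (adjusted p = 0.108). *Col6a2* differed by -0.88 (SE 0.18, adjusted p = 0.0206, lower in 3 of 3 genotypes), *Col2a1* by -0.55 (SE 0.12, adjusted p = 0.0298, lower in 3 of 3 genotypes) and *Col1a1* by -0.75 (SE 0.18, adjusted p = 0.0469, lower in 3 of 3 genotypes). These 3 calls were lost in 4, 8 and 9 alternatives, among them no filter on low values, leaving out the 1.5 h arrays and leaving out the WT 0 h array, the brightest array for each of these genes. Without that array the differences were -0.80, -0.49 and -0.55, with adjusted p of 0.0639, 0.0648 and 0.126.

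The genotypes were not parallel in every gene. At 24 h over 0 h *Dcn* differed by 0.07 in *Sirt6-/-RelA-/-* MEFs, 0.74 in *Sirt6-/-* MEFs and 0.91 in WT MEFs. *Lum* differed by -0.38 in *Sirt6-/-RelA-/-* MEFs, 0.69 in *Sirt6-/-* MEFs and 1.11 in WT MEFs. In a fit with separate times for *Sirt6-/-RelA-/-* MEFs, *Dcn* passed for *Sirt6-/-* and WT MEFs together (0.83, adjusted p = 0.0275). *Lum* gave 0.90 (adjusted p = 0.0206) in that fit. It passed the filter only through the WT arrays after 0 h, where it was high, so its rise is given as a description. *Col3a1* and *Col5a2* were lower at 24 h in *Sirt6-/-RelA-/-* MEFs, at -0.96 and -1.03, and changed by -0.09 to 0.17 in the other 2 genotypes. The difference of the late response (6 and 24 h over 0 and 1.5 h) between genotypes was tested directly. No gene passed, matrix or other (0 of 6096, 0% called), for *Sirt6-/-* minus WT or for *Sirt6-/-RelA-/-* minus *Sirt6-/-*. At an unadjusted p under 0.05 there were 3 matrix genes and 523 genes in all for *Sirt6-/-* minus WT (*Col6a1* 0.71, *Fbln2* 0.51 and *Lox* 0.57), and 1 matrix gene and 160 genes in all for *Sirt6-/-RelA-/-* minus *Sirt6-/-* (*Col5a2*, -0.74).

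**Figure D3:**
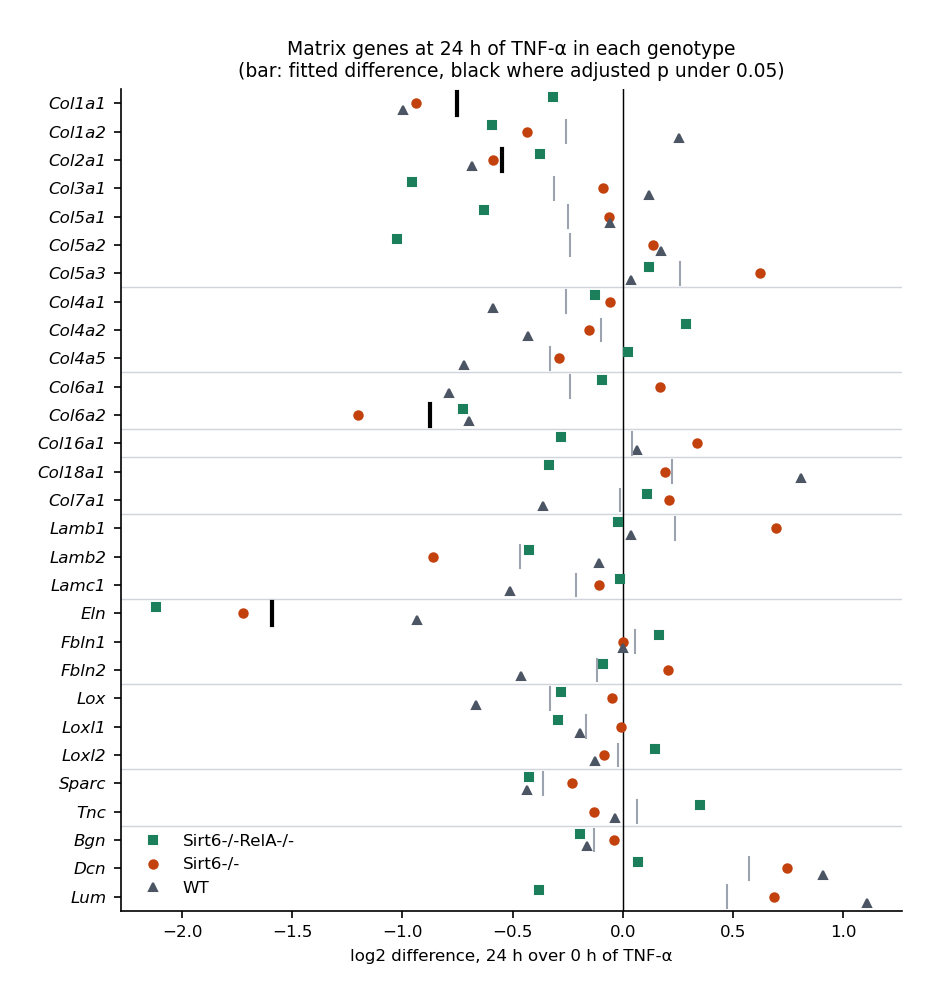
Log2 difference between 24 h and 0 h of TNF-α (x axis) for the 29 tested matrix genes (rows, by class), with 1 point for each genotype, each a difference of 2 arrays, and a bar at the fitted difference, black where the adjusted p was under 0.05. Most points lie left of 0, all 3 points of *Eln* lie at or beyond -0.93, and *Dcn* and *Lum* lie on the right in *Sirt6-/-* and WT MEFs.

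The machinery that makes and receives the matrix was followed through 4 lists of other genes, and the counts in *Sirt6-/-* over WT MEFs moved by at most 1 gene under either other scaling. Of 19 tested genes of collagen synthesis and secretion, 9 were higher and 0 lower in *Sirt6-/-* than in WT MEFs, against 25.1% and 17.0% of all genes, with a median of 0.20 on the log2 scale against 0.06 over all genes. They included *Bmp1*, the proteinase that trims procollagen I, at 1.19 (SE 0.14, adjusted p = 1.86e-05), and *Plod2*, a lysyl hydroxylase, at 0.79 (SE 0.20, adjusted p = 0.00682). The prolyl hydroxylase *P4ha1*, also among them, reached 100 only in the knockouts, so its difference of 0.87 is given as a description. The 19 tested genes include *P4ha1* and *Creb3l1*, which did not reach 100 in every genotype. *Bmp1* lay at 1474 to 1838 in *Sirt6-/-RelA-/-* MEFs, 2373 to 2804 in *Sirt6-/-* MEFs and 829.8 to 1355 in WT MEFs. In *Sirt6-/-RelA-/-* over *Sirt6-/-* MEFs 0 were higher and 3 lower, against 16.1% and 15.0% of all genes: *Bmp1* (-0.64), the procollagen C-proteinase enhancer *Pcolce* (-0.47) and the COPII coat gene *Sec23a* (-0.42). Over WT MEFs, *Sirt6-/-RelA-/-* MEFs had 4 higher and 0 lower, against 15.3% and 5.31% of all genes, among them *Bmp1* (0.55) and the lysyl hydroxylase *Plod3* (0.53).

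Of 15 tested matrix receptors, 6 were higher and 1 lower in *Sirt6-/-* than in WT MEFs, against 25.1% and 17.0% of all genes. The laminin receptor chains *Itga7* (0.96) and *Itgb1* (0.79) and dystroglycan, *Dag1* (0.78), were higher, and the syndecan *Sdc1* (-0.51) lower. Integrin α7 is the laminin receptor of muscle, and the skeletal muscle markers given above were also higher in these cells, whose part was not tested. Of 15 tested genes of the TGF-β pathway, 7 were higher and 0 lower, against the same shares of all genes, with a median of 0.22 and 0.06 over all genes. They included the ligand *Tgfb2* (0.86), the latent TGF-β binding protein *Ltbp1* (0.77) and the induced matrix gene *Tgfbi* (0.72). In *Sirt6-/-RelA-/-* over *Sirt6-/-* MEFs 2 of the 15 were higher (*Ltbp4* 0.54, *Tgfb3* 0.38) and 6 lower, against 16.1% and 15.0% of all genes. *Ltbp4* did not reach 100 in *Sirt6-/-* MEFs, and the lower genes included *Ltbp1* (-0.51), the receptor *Tgfbr1* (-0.43) and *Tgfb2* (-0.40).

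Of 14 tested matrix glycoproteins and proteoglycans outside the symbols above, 10 were higher and 1 lower in *Sirt6-/-* than in WT MEFs, against 25.1% and 17.0% of all genes, with a median of 0.52 and 0.06 over all genes. These counts include the 2 genes of the list that did not reach 100 in every genotype, *Efemp1* (higher) and *Prelp* (the 1 lower). *Efemp1*, a fibulin family member also called fibulin-3, lay at 37.5 to 71.8 in *Sirt6-/-RelA-/-* MEFs, 167 to 185 in *Sirt6-/-* MEFs and 31.2 to 58.8 in WT MEFs. It passed the filter only through the *Sirt6-/-* arrays, where it was high, so its differences of 2.01 in *Sirt6-/-* over WT and -1.74 in *Sirt6-/-RelA-/-* over *Sirt6-/-* MEFs are given as a description. The proteoglycan osteoglycin, *Ogn*, differed by 1.59 and -1.66 in the same comparisons, and the related *Prelp* by -1.22 and 1.09, the opposite signs. *Prelp* did not reach 100 in *Sirt6-/-* MEFs. The basement membrane linker *Nid2* was higher in both knockouts than in WT MEFs, by 1.16 in *Sirt6-/-RelA-/-* and 0.86 in *Sirt6-/-* MEFs. At 24 h of TNF-α 4 of the 14 were lower and 0 higher, against 1.28% and 0.869% of all genes: *Ogn* (-0.99), the microfibril protein *Mfap4* (-0.89), *Prelp* (-0.80) and *Nid2* (-0.58). In the other 3 lists the genes called at 24 h were the ligand *Tgfb3* (-0.89, and -0.71 at 6 h), the TGF-β and BMP target *Id1* (-0.67) and the collagen receptor chain *Itga11* (-0.88), all lower.

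**Figure D4:**
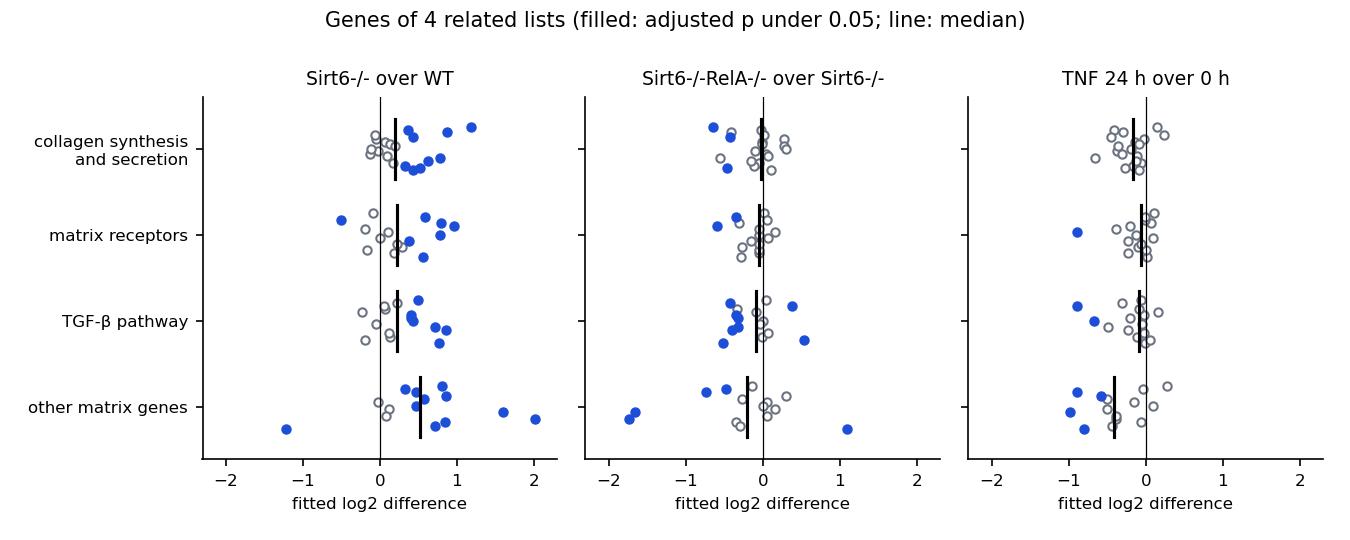
Fitted log2 differences (x axis) of the tested genes of 4 related lists (rows) for *Sirt6-/-* over WT, *Sirt6-/-RelA-/-* over *Sirt6-/-* and 24 h over 0 h of TNF-α, with 1 point for each gene, filled where the adjusted p was under 0.05, and a line at the median. The medians in the first panel run from 0.20 to 0.52, and that of the other matrix genes at 24 h is -0.41.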

How the data were processed

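Per the labels and methods, total RNA was extracted with TRIzol, labelled as Cy5 cRNA and hybridised to Illumina mouse bead arrays, and GenomeStudio was used (version not given in the sources used here). The authors deposited linear intensities with background subtracted, 17.7% of them below 0. Upper quartiles of 147 to 152 on all arrays show a common scaling, whose method is not given. Of 25697 probes, 23978 had 1 gene symbol in the platform annotation. Values under 16 were set to 16 and log2 transformed, genes reaching 100 on any array were kept (the detection value of the methods), and the brightest probe was taken for each gene. limma 3.58.1 (R 4.3.3) was fitted with genotype and time as additive terms over the 12 arrays, leaving 6 residual degrees of freedom. A second fit of genotype by late (6 and 24 h) or early (0 and 1.5 h) times gave the differences between responses. Adjusted p-values are Benjamini-Hochberg over all 6096 genes. The scripts were tested on simulated data. The alternatives were other filters, floors, scalings, probe rules, variance priors and subsets of arrays. The text names the deleted genes, every tested matrix gene, and up to 3 called genes each way with the largest difference from each other list in a genotype comparison. Markers, genes near the detection value and list genes called at 24 h were named after their values were seen. The members and lists were chosen with earlier results of these data known. A second file with 12 signal columns whose names match no sample label was not used. Promoter sequences are from RefSeq (GRCm38.p6). Precision is limited by 1 array for each condition.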

Additional observations from a re-analysis of the deposited data

Results flagged for a closer look

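For 6 matrix genes the TNF-α response over 0 h ran in opposite directions in a pair of genotypes at all 3 times after 0 h. Each response is set against the single 0 h array of its genotype, so the 3 times are not independent, and none of these differences was tested as such. *Col16a1* averaged -0.17 on the log2 scale in *Sirt6-/-RelA-/-* MEFs and 0.36 in *Sirt6-/-* MEFs, a difference of 0.52 for *Sirt6-/-* minus *Sirt6-/-RelA-/-*. *Col3a1* averaged -0.49 in *Sirt6-/-RelA-/-* MEFs and 0.33 in WT MEFs, a difference of -0.82. *Lamb1* averaged -0.24 in *Sirt6-/-RelA-/-* MEFs and 0.11 in WT MEFs, a difference of -0.35, and *Tnc* averaged 0.36 and -0.11, a difference of 0.47. *Col6a1* averaged 0.13 in *Sirt6-/-* MEFs and -0.60 in WT MEFs, a difference of 0.73. Its second probe measured 3074 on the WT 0 h array and 3121 to 3919 on the later WT arrays, so the fall in WT MEFs was not seen with that probe. *Col7a1* averaged 0.11 in *Sirt6-/-* MEFs and -0.41 in WT MEFs, a difference of 0.51. The WT 0 h array, which enters 5 of these 6 differences, had the lower correlation given above, and its part in them was not tested.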

How the results depend on the processing

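Calls that held in every alternative run were 11 of 20 for *Sirt6-/-* over WT, 8 of 12 for *Sirt6-/-RelA-/-* over *Sirt6-/-*, 5 of 10 for *Sirt6-/-RelA-/-* over WT and 0 of 4 at 24 h of TNF-α, and no called gene changed direction. The genotype calls counted include those of *Col5a3* and *Lum*, which passed the filter only through the WT arrays. Without a filter on low values, 7 matrix genes were higher in *Sirt6-/-* over WT MEFs in place of 12 (5 of those 12, and *Col10a1* and *Lama2*, which are under 100), 3 were lower in *Sirt6-/-RelA-/-* over WT MEFs in place of 6, and 0 were lower at 24 h in place of 4. This adds dim genes to the multiple testing and also to the variance prior that limma shares over genes. The part of each in the lost calls was not tested. Quantile normalization gave 7 higher in *Sirt6-/-* over WT MEFs and 2 higher, in place of 4, in *Sirt6-/-RelA-/-* over WT MEFs, the cause of which was not tested. The mean of a gene's probes gave 2 lower at 24 h, and separate times for *Sirt6-/-RelA-/-* MEFs gave 2 lower and 2 higher (*Dcn* and *Lum*, in place of 0). Leaving out the arrays of one time, or the WT 0 h array, gave 6 to 13 genes higher in *Sirt6-/-* over WT MEFs, 2 to 5 higher in *Sirt6-/-RelA-/-* over WT MEFs and 1 to 2 lower at 24 h, where without the WT 0 h array 1 remained, *Eln*. Some calls were gained without the WT 0 h array. *Col18a1* was then lower in *Sirt6-/-* over WT MEFs (-0.34, adjusted p = 0.0456), and *Col4a1* lower in *Sirt6-/-RelA-/-* over *Sirt6-/-* MEFs (-0.22, adjusted p = 0.0494). In *Sirt6-/-RelA-/-* over WT MEFs *Col3a1* was lower (-0.41, adjusted p = 0.0434) and *Col7a1* higher (0.37, adjusted p = 0.0109). Leaving out all 4 WT arrays was an alternative chosen after seeing the data. Time was a term of the fit, so genotypes were compared within times, and there were no replicates to pair beyond that. Intensities under the floor of 16 have no order, and 2 *Sirt6-/-* arrays of *Col5a3* lie there.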
